A study of Rattus norvegicus with 33 samples.

Results

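The soleus, a slow postural muscle of the calf, was profiled in rats after 3 days of 2 kinds of muscle activity, and the difference between the responses to them was measured here. The first response, the ES effect, was the log2 level in SCI-ES-3Days animals minus that in SCI-Sham_ES animals. The second, the GA effect, was the log2 level in GA-3Days animals minus that in Sham-GA-3Days animals. The difference was the ES effect minus the GA effect, so a positive value means that the ES effect lay above the GA effect. It used 12 of the 33 arrays of the series, chosen by their labels, with 1 animal per array and 3 animals per group. It was computed for 15252 rows of the array that carry 1 gene symbol and a mean of at least 3, out of 29214 rows in all, and these rows stand for 14453 genes.

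All animals were female Wistar rats. SCI-ES-3Days rats had their spinal cord transected at 9 weeks of age, underwent implantation of a nerve stimulator with tenotomy of the left gastrocnemius 14 weeks later, and received electrical stimulation (ES) for 1 h per day from 16 weeks after transection, with soleus taken at 3 days. SCI-Sham_ES rats had the same transection, sham surgery and tenotomy but no stimulator, and their tissue was taken 21 days after the sham implantation. GA-3Days rats had an intact spinal cord and were operated on at 22 to 23 weeks of age, when the left gastrocnemius was cut so that the soleus carried its load for 3 days. Sham-GA-3Days rats had that surgery without the cut. The sources differ on some of this: the series description gives day 2 in place of day 3 for the stimulated animals and surgery on both legs for the GA animals, while the sample labels give day 3 and the study's methods the left leg, which are followed here. The ES effect was therefore measured in a chronically paralyzed muscle whose gastrocnemius had already been cut in both groups, and the GA effect in a muscle under normal nervous control. Spinal injury, age at surgery and time since tenotomy differ between the experiments and cannot be told apart from the kind of activity. Within the ES experiment, only SCI-ES-3Days rats carried a stimulator. Their time from implantation to tissue was not matched to the 21 days of SCI-Sham_ES. In the ES effect neither can be told apart from stimulation. The ES and GA experiments share no arrays.

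Slow soleus fibers make most of their ATP in mitochondria, by oxidizing fatty acids and pyruvate, and keep a program of slow contractile proteins under steady nerve activity. After spinal cord injury the soleus is known to shift toward fast contractile proteins and to lose mass. Overload of a muscle by removal of its synergist is a standard model of growth, with known entry of macrophages, division of satellite and connective tissue cells, matrix remodeling and ribosome production. Electrical stimulation of a paralyzed muscle restores contractions without weight bearing.

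Some arrays stood apart from their groups. Over 10511 rows with a mean of at least 6, Sham-GA-3Days replicate 2 correlated at 0.77, 0.37 and 0.82 with the GA-3Days arrays and at −0.42 and −0.30 with the other Sham-GA-3Days arrays, which correlated at 0.78 with each other. These are correlations of deviations across genes within 12 arrays and are descriptive. The library labelled Sham-GA-3Days replicate 2 thus resembled the arrays of the cut muscle, and results are given with and without it. It was picked by its values. Leaving out a sham array that resembles the GA-3Days arrays tends to widen the GA effect, so calls without it are not independent support. GA-3Days replicate 2 stood apart as well: it correlated at 0.44 and 0.24 with the other GA-3Days arrays, which correlated at 0.73 with each other, and at 0.09, 0.37 and 0.29 with Sham-GA-3Days replicates 1, 2 and 3. Whether the labels of these replicate 2 arrays were exchanged could not be told from the files, and every GA effect given with all arrays takes the labels as they stand. SCI-Sham_ES replicate 2 also stood apart: its atrophy and denervation list averaged 10.95 against 9.93 and 9.90 in replicates 1 and 3. SCI-ES-3Days replicate 2 had a macrophage list level of 9.40 against 8.32 and 7.58 in replicates 1 and 3. The label of skeletal muscle held on all 12 arrays, where 12 fiber markers averaged 12.63 to 13.36 while array medians over all rows lay between 6.45 and 6.54. The experiments differed in starting state: 14 fast fiber genes averaged 12.24 to 12.45 in SCI-ES-3Days and 12.10 to 12.82 in SCI-Sham_ES, but 9.25 to 9.79 in GA-3Days and 9.18 to 9.92 in Sham-GA-3Days.

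No row passed the test for the difference (limma, adjusted p under 0.05 with a change of at least 1.5 fold), which is 0% of the rows tested. The lowest adjusted p was 0.48. At an unadjusted p under 0.05, 1439 rows (9.43%) stood out, 784 with a positive difference (5.14%) and 655 with a negative one (4.29%). Without Sham-GA-3Days replicate 2 there were still 0 calls, with a lowest adjusted p of 0.095 and 3161 rows (20.7%) at an unadjusted p under 0.05, 1603 positive (10.5%) and 1558 negative (10.2%). Taken alone, the ES effect had 0 calls and 456 rows (2.99%) at that level, and the GA effect had 0 calls and 2874 rows (18.8%). Without that array the GA effect had 1647 calls (10.8%), 1013 up (6.64%) and 634 down (4.16%). All SCI-ES-3Days arrays lay above or all below the SCI-Sham_ES arrays in 1372 rows (9%), and the GA-3Days and Sham-GA-3Days arrays were separated in this way in 2051 rows (13.4%), or 7928 (52%) without that array. The values that follow are measured differences and not calls, except where a call is stated. The p-values use a spread between animals that was pooled, row by row, over all groups of the series, with 3 animals per group. They do not measure the spread within the compared groups alone. No gene listed below had an adjusted p under 0.48 for the difference with all arrays.

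The leading rows mostly had ES and GA effects of opposite sign. Among the 784 rows with a positive difference at an unadjusted p under 0.05, the median ES effect was 0.19 and the median GA effect −0.41, and in 97.1% of them the effects had opposite signs. Among the 655 rows with a negative difference the medians were −0.17 for the ES effect and 0.41 for the GA effect, with opposite signs in 92.4%. These signs follow in part from the selection on the difference itself, and over all rows 49.3% had opposite signs. Without Sham-GA-3Days replicate 2, opposite signs were found in 84.8% of the positive and 66.1% of the negative rows at that level. Their median ES effects were 0.12 and −0.07, and the GA effect was the larger in size in 95.2% and 94% of them. Across all rows the spread of the ES effect was 0.18 (SD over rows) and that of the GA effect 0.354, and the GA effect was the larger in size in 68.9% of rows.

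**Figure D1:**
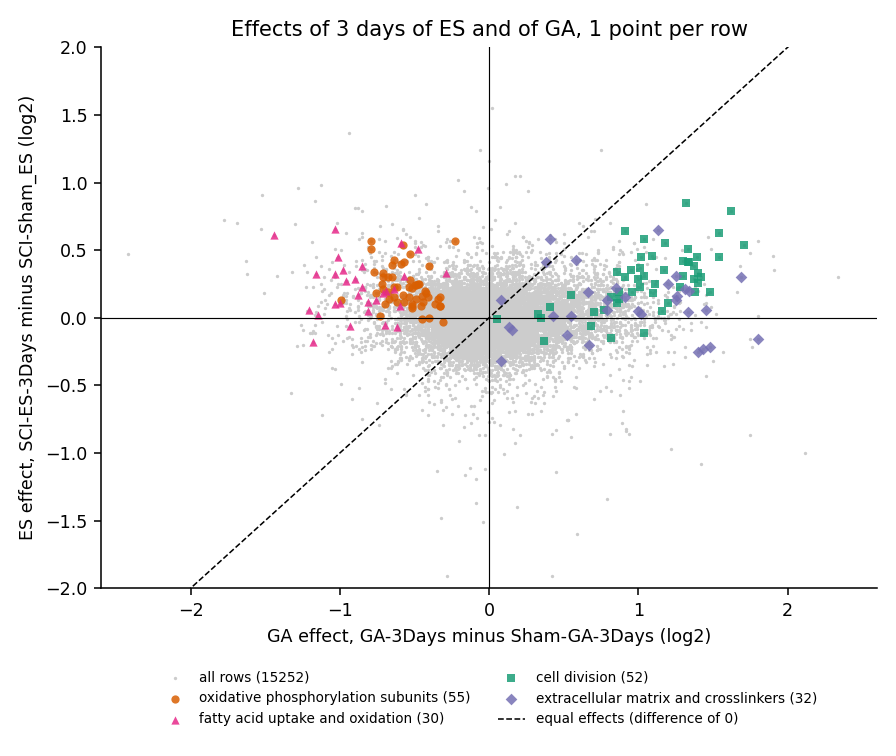
Effect of 3 days of ES (vertical axis, log2) against effect of 3 days of GA (horizontal axis, log2), 1 point per row, with 4 gene lists in color and a dashed line where the effects are equal. The 55 oxidative phosphorylation and 30 fatty acid oxidation genes lie at a negative GA effect near or above 0 on the ES axis, and the 52 cell division genes at a positive GA effect.

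Genes of mitochondrial respiration had positive differences throughout. All 55 measured subunits of oxidative phosphorylation had a positive difference, with a median of 0.74 beside 0.01 over all rows tested. Of these, 46 (83.6%, beside 5.14% of all rows) reached an unadjusted p under 0.05 and 0 were negative at that level. Their median ES effect was 0.19, above 0 in 53 of 55, and their median GA effect was −0.54, below 0 in 55 of 55. Averaged over the list, levels were 11.54, 11.40 and 11.67 in SCI-ES-3Days, against 11.53, 10.97 and 11.45 in SCI-Sham_ES. They were 10.71, 11.10 and 10.44 in GA-3Days, against 11.53, 10.94 and 11.45 in Sham-GA-3Days. The ES groups overlapped, and the GA groups overlapped only through replicate 2 of each.

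Cox5b, a subunit of cytochrome c oxidase (row 10922572), had the smallest unadjusted p of the genes followed here. Its log2 level was 11.13, 10.95 and 11.20 in SCI-ES-3Days, against 10.97, 10.08 and 10.69 in SCI-Sham_ES. In GA-3Days it was 9.74, 10.16 and 9.71, against 10.81, 10.39 and 10.78 in Sham-GA-3Days. All GA-3Days arrays lay below all Sham-GA-3Days arrays, while the ES groups overlapped at one pair of values. The difference was 1.30 (SE 0.296, limma adjusted p = 0.48), and it stayed between 1.05 and 1.5 with each array left out.

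Ndufb10, a subunit of complex I (row 10741239), measured 11.36, 11.09 and 11.26 in SCI-ES-3Days, against 10.85, 10.45 and 10.80 in SCI-Sham_ES. It measured 10.27, 10.62 and 10.18 in GA-3Days, against 11.15, 10.59 and 11.07 in Sham-GA-3Days. Here the ES groups did not overlap and the GA groups did, by the GA-3Days array at 10.62. The difference was 1.11 (SE 0.256, limma adjusted p = 0.48).

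Atp5mc1 encodes the membrane-embedded c subunit of ATP synthase, and its groups were separated in both experiments. Levels were 12.25, 12.14 and 12.24 in SCI-ES-3Days, against 12.07, 10.91 and 11.96 in SCI-Sham_ES. They were 10.60, 11.10 and 10.69 in GA-3Days, against 11.86, 11.17 and 11.74 in Sham-GA-3Days. Its difference of 1.36 was the highest of the respiratory subunits, and Uqcrb, a subunit of complex III, was the lowest at 0.28. Cox8b, a muscle isoform of a cytochrome c oxidase subunit, differed by 1.12 with nearly all of it in the GA effect of −0.99. Rtn4ip1, a mitochondrial oxidoreductase, differed by 1.12 with an ES effect of 0.46 and a GA effect of −0.66.

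The size of the respiratory difference moved with single arrays. Without GA-3Days replicate 2 the list median was 0.96, the highest of these fits. Without Sham-GA-3Days replicate 2 the list median was 0.93, with 53 of 55 members positive at an unadjusted p under 0.05, beside 10.5% of all rows. In that fit 40 of 55 fell in GA by the test, beside 4.16% of all rows. Without SCI-Sham_ES replicate 2 the median was 0.57, 26 members were positive at that level, and the median ES effect was 0.02 in place of 0.19. The positive sign of the list median was kept with each of the 12 arrays left out.

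**Figure D2:**
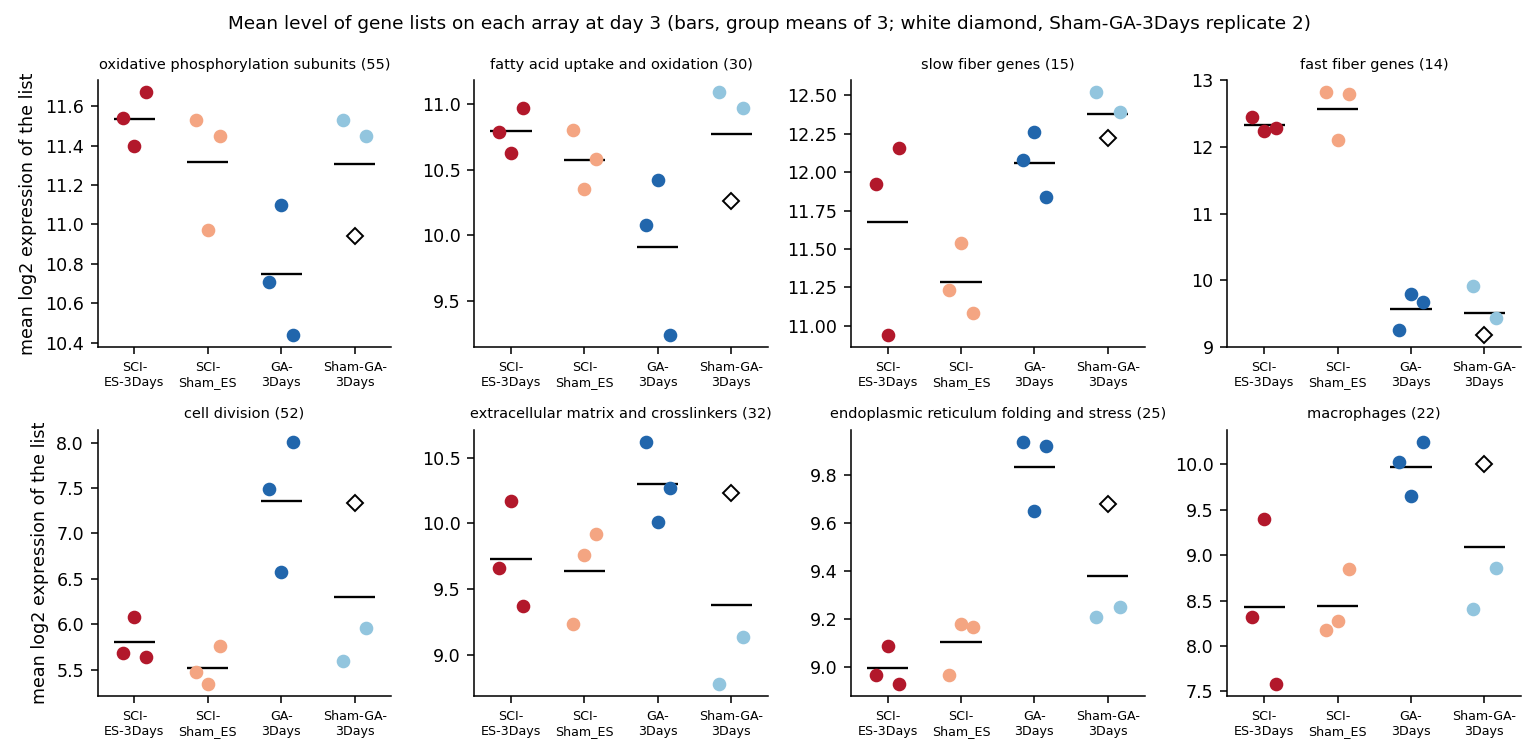
Mean log2 level of 8 gene lists on each of the 12 arrays at day 3, with SCI-ES-3Days, SCI-Sham_ES, GA-3Days and Sham-GA-3Days from left to right, bars at group means of 3 arrays and Sham-GA-3Days replicate 2 as a white diamond. Respiratory genes are lowest in GA-3Days (10.44 to 11.10), cell division genes are highest there (6.57 to 8.01), and the white diamond lies toward the GA-3Days points in both.

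Promoters of 2 respiratory genes are shown because they hold the extended estrogen-related receptor half-site TCAAGGTCA, a motif known in mitochondrial genes. They are RefSeq sequences on build GRCr8, from 250 bases before to 50 after the gene start, with the motif on either strand in capitals. Atp5mc3, another c subunit gene, lies on chr3:79220615-79220914 (minus strand) and differed by 0.98. Sdhd, a membrane anchor subunit of complex II, lies on chr8:59850592-59850891 (minus strand) and differed by 0.93.
Atp5mc3: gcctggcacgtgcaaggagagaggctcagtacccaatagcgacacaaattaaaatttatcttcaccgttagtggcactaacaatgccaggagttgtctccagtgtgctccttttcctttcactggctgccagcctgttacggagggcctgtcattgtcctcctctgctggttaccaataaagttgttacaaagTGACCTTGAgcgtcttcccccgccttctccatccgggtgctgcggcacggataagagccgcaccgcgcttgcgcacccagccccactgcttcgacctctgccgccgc
Sdhd: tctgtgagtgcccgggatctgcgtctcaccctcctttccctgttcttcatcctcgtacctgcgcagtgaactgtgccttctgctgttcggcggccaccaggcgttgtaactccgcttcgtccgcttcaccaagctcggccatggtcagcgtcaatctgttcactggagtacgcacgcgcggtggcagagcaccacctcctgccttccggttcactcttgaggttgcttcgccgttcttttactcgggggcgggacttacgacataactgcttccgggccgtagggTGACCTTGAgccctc
The motif was found in 2 of the 50 matched promoters of the 55 oxidative phosphorylation genes (4%), in 0 of 24 matched among the 30 fatty acid genes, and in 113 of all 27457 promoters (0.412%). Nearly all respiratory genes with a positive difference therefore have no copy of these letters in this window.

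Fatty acid uptake and oxidation showed the highest median of all lists. All 30 genes had a positive difference, with a median of 1.06, and 20 reached an unadjusted p under 0.05 (66.7%). The median ES effect was 0.20 and the median GA effect −0.87. Without Sham-GA-3Days replicate 2 the median difference was 1.31 and 22 of 30 fell in GA by the test, beside 4.16% of all rows. Without SCI-Sham_ES replicate 2 the median ES effect was 0.05 and the median difference 0.92, and without GA-3Days replicate 3 the median difference was 0.75. List levels were 10.79, 10.63 and 10.97 in SCI-ES-3Days, against 10.80, 10.35 and 10.58 in SCI-Sham_ES. They were 10.08, 10.42 and 9.24 in GA-3Days, against 11.09, 10.26 and 10.97 in Sham-GA-3Days. GA-3Days replicate 3 was the lowest array of the 12.

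Fabp3, the fatty acid carrier of muscle cytosol (row 10872473), had the highest difference of this list at 2.05 (SE 0.626, limma adjusted p = 0.48). It measured 11.70, 11.06 and 11.76 in SCI-ES-3Days, against 11.35, 10.57 and 10.76 in SCI-Sham_ES. It measured 11.06, 11.13 and 9.73 in GA-3Days, against 12.32, 11.71 and 12.20 in Sham-GA-3Days. All GA-3Days arrays lay below the Sham-GA-3Days arrays, and the ES groups overlapped. Hadh, which carries out the third step of mitochondrial beta-oxidation, differed by 1.69 with an ES effect of 0.66 and a GA effect of −1.03. Acsl1, which activates long-chain fatty acids to their CoA esters, differed by 1.49, and Cpt2, which returns acyl groups to CoA inside mitochondria, by 1.46. Decr1, needed for unsaturated fatty acids, was the lowest at 0.55 (limma adjusted p = 0.68).

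Acox2, a peroxisomal oxidase of branched acyl-CoA (row 10779469), is outside that list and was among the rows with the smallest unadjusted p. It measured 6.49, 6.84 and 6.95 in SCI-ES-3Days, against 6.25, 5.65 and 6.0 in SCI-Sham_ES. It measured 5.77, 6.17 and 5.49 in GA-3Days, against 7.21, 5.91 and 6.87 in Sham-GA-3Days. The ES groups did not overlap, and the GA groups overlapped through replicate 2 of each. The difference was 1.64 (SE 0.389, limma adjusted p = 0.48), and without Sham-GA-3Days replicate 2 it was 2.02 with an adjusted p of 0.095.

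Entry of carbon into the citric acid cycle followed the same direction. All 19 genes of pyruvate dehydrogenase and the cycle had a positive difference (median 0.68, 11 at an unadjusted p under 0.05). Cytosolic malate dehydrogenase Mdh1 differed by 1.23, the pyruvate carrier subunit Mpc2 by 0.96 and the pyruvate dehydrogenase subunit Pdhb by 0.89. Suclg2, a succinyl-CoA synthetase subunit, was the lowest at 0.17. Me3, the mitochondrial malic enzyme, stood above all of these with a difference of 1.99 (SE 0.523, limma adjusted p = 0.48). Its levels were 9.19, 8.84 and 9.62 in SCI-ES-3Days, against 8.73, 8.27 and 8.57 in SCI-Sham_ES, and the groups did not overlap. They were 7.07, 7.94 and 6.30 in GA-3Days, against 8.76, 7.76 and 8.69 in Sham-GA-3Days, with an overlap at replicate 2 of each.

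Branched-chain amino acid breakdown was positive in all 16 genes (median 0.65), although only 3 reached an unadjusted p under 0.05. The median ES effect was 0.02 and the median GA effect −0.63, so nearly all of the difference lay in the GA effect. Bckdha, the catalytic subunit of the branched-chain ketoacid dehydrogenase, differed by 1.13, and Mccc2 and Bckdhb, which act in leucine and general branched-chain breakdown, by 0.90 and 0.84. Bckdk, the kinase that inhibits the dehydrogenase, was lowest at 0.29. Without Sham-GA-3Days replicate 2, 14 of the 16 fell in GA by the test, beside 4.16% of all rows.

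Regulators of oxidative metabolism were mixed in size. Of 14 genes of the PGC-1 network, 12 were positive (median 0.47) and 3 reached an unadjusted p under 0.05. Perm1, a muscle protein induced by PGC-1 and estrogen-related receptors (row 10874860), differed by 2.50 (SE 0.967, limma adjusted p = 0.48). It measured 8.98, 8.30 and 9.06 in SCI-ES-3Days, against 8.81, 6.67 and 8.69 in SCI-Sham_ES. In GA-3Days it was 7.47, 8.40 and 6.26, against 9.99, 8.23 and 9.25 in Sham-GA-3Days. Both pairs of groups overlapped through replicate 2. The fatty acid receptor Ppara differed by 1.40, and the coactivators Ppargc1a and Ppargc1b by 1.08 and 0.88. For Ppargc1a the ES effect was −0.11 and the GA effect −1.19, with levels of 9.59, 9.03 and 9.19 in SCI-ES-3Days and 9.63, 9.19 and 9.32 in SCI-Sham_ES.

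Glucose use was less uniform: 17 of 23 glycolysis and glycogen genes were positive (median 0.40), with 4 at an unadjusted p under 0.05. Pfkfb1, which sets the level of fructose 2,6-bisphosphate, differed by 2.19. It measured 10.51, 10.15 and 10.35 in SCI-ES-3Days, against 10.89, 7.78 and 10.37 in SCI-Sham_ES. Its ES effect of 0.66 thus rested on the single SCI-Sham_ES array at 7.78. Ldhb, the heart-type lactate dehydrogenase, differed by 1.33, the insulin-responsive glucose carrier Slc2a4 by 1.24 and the basal carrier Slc2a1 by −0.59. Without SCI-Sham_ES replicate 2 the list median was 0.03.

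Aqp7, a glycerol channel of fat and muscle cells (row 10876060), had the highest positive difference of all rows at 2.89 (SE 0.941, limma adjusted p = 0.48). It measured 9.09, 9.44 and 8.99 in SCI-ES-3Days, against 9.06, 8.50 and 8.55 in SCI-Sham_ES. In GA-3Days it was 8.44, 8.30 and 6.37, against 10.56, 9.31 and 10.52 in Sham-GA-3Days. The GA groups did not overlap, and the ES groups overlapped narrowly. Slc7a15, an amino acid transporter, differed by 1.49 with both pairs of groups separated: 6.69, 6.93 and 6.98 in SCI-ES-3Days against 6.02, 6.51 and 6.18 in SCI-Sham_ES, and 6.41, 6.36 and 6.30 in GA-3Days against 7.41, 6.71 and 7.51 in Sham-GA-3Days. The proton-coupled amino acid transporter Slc36a2 differed by 1.02 and the endothelial growth factor Vegfb by 1.28, each with a positive ES effect and a negative GA effect.

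**Figure D3:**
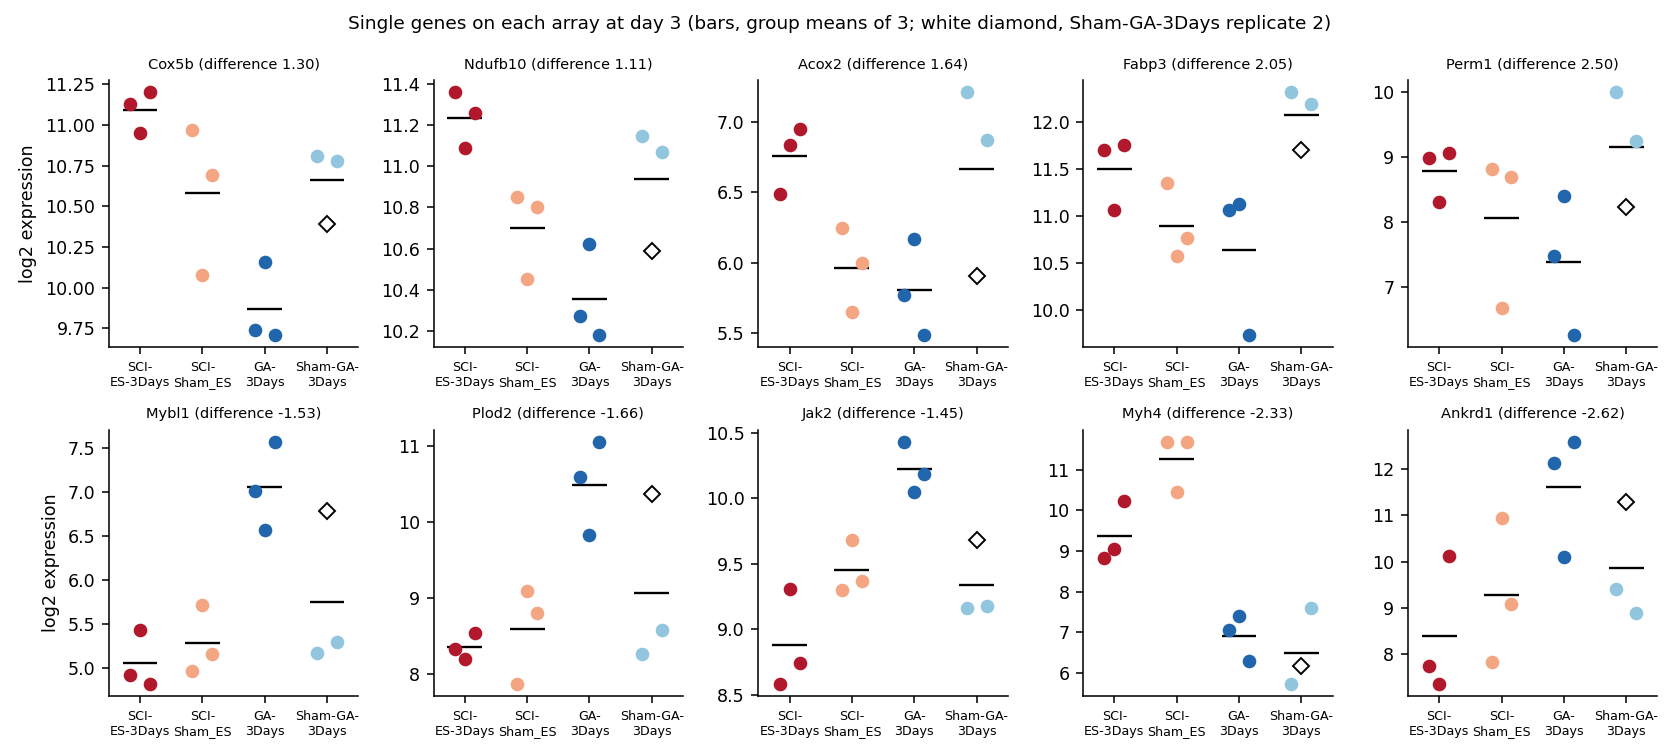
Log2 level of 10 genes on each of the 12 arrays at day 3, groups ordered as SCI-ES-3Days, SCI-Sham_ES, GA-3Days and Sham-GA-3Days, bars at group means of 3 arrays and Sham-GA-3Days replicate 2 as a white diamond. The upper row holds genes with a positive difference (1.11 to 2.50) and the lower row genes with a negative one (−1.45 to −2.62).

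Among slow fiber genes, 13 of 15 were positive with a median of 0.75, and 4 reached an unadjusted p under 0.05. The median ES effect was 0.34 and the median GA effect −0.27. Myh7b, a slow-type myosin heavy chain that hosts a microRNA, differed by 1.65 (limma adjusted p = 0.48), mostly through a GA effect of −1.32. The regulatory light chain Myl2 differed by 1.21, the calcium pump regulator Pln by 1.06, slow troponin C (Tnnc1) by 0.80, slow troponin I (Tnni1) by 0.72 and slow myosin heavy chain Myh7 by 0.52.

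Ankrd2, a stretch-responsive protein of slow fibers (row 10730332), differed through its ES effect. It measured 12.39, 10.63 and 12.16 in SCI-ES-3Days, against 10.52, 10.73 and 10.44 in SCI-Sham_ES. It measured 13.40, 13.38 and 13.29 in GA-3Days, against 13.43, 13.38 and 13.24 in Sham-GA-3Days. The GA groups were intermixed near the highest levels of the array, and SCI-ES-3Days replicates 1 and 3 lay above all SCI-Sham_ES arrays while replicate 2 lay among them. The ES effect was 1.16 and the GA effect 0.00. Casq2, the calcium store protein of slow fibers, had an ES effect of 0.82 and a GA effect of 0.07, again with SCI-ES-3Days replicate 2 (9.63) apart from replicates 1 and 3 (11.01 and 11.39).

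Fast fiber genes had a median of −0.13 with 8 of 14 below 0. Myh4, the fastest myosin heavy chain (row 10734583), was the exception in size with a difference of −2.33 (SE 1.11, limma adjusted p = 0.52). It measured 8.83, 9.04 and 10.22 in SCI-ES-3Days, against 11.69, 10.45 and 11.68 in SCI-Sham_ES, with no overlap. It measured 7.06, 7.41 and 6.28 in GA-3Days, against 5.72, 6.16 and 7.59 in Sham-GA-3Days, with the groups intermixed. Pvalb, a calcium buffer of fast fibers, had an ES effect of −1.51 and a GA effect of −0.04. On the arrays of the GA experiment it ranged from 4.63 to 6.96, where array medians over all rows were 6.45 to 6.54. Cntfr, the receptor subunit for ciliary neurotrophic factor, measured 8.31, 8.30 and 8.15 in SCI-ES-3Days, against 9.25, 10.22 and 9.40 in SCI-Sham_ES. In GA-3Days it was 6.82, 6.71 and 6.54, against 6.92, 6.33 and 7.10 in Sham-GA-3Days. Its ES groups were separated and its GA groups intermixed, giving a difference of −1.28.

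On the negative side, all 52 cell division genes had a negative difference, with a median of −0.77, and 10 (19.2%, beside 4.29% of all rows) reached an unadjusted p under 0.05. Their median ES effect was 0.29, above 0 in 47 of 52, and their median GA effect was 1.07, above 0 in 52 of 52. Both effects thus had a positive sign for most of these genes, and the GA effect was the higher. At an unadjusted p under 0.05 (limma), 0 of 52 rose with ES and 48 of 52 with GA. Over all rows, 2.99% for ES and 18.8% for GA reached that level in either direction. Without SCI-Sham_ES replicate 2 the median ES effect was 0.18. List levels were 5.68, 6.08 and 5.64 in SCI-ES-3Days, against 5.47, 5.34 and 5.76 in SCI-Sham_ES. They were 7.49, 6.57 and 8.01 in GA-3Days, against 5.60, 7.34 and 5.96 in Sham-GA-3Days. Without the array at 7.34 the median difference was −1.29, and 48 of 52 reached an unadjusted p under 0.05, beside 10.2% of all rows. In that fit 48 of 52 rose in GA by the test, beside 6.64% of all rows. That array was left out because of its values.

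Cep55, which acts in the last step of cytokinesis, had the lowest difference of the list at −1.29 (SE 0.519, limma adjusted p = 0.48). It measured 4.95, 5.29 and 4.87 in SCI-ES-3Days, against 4.70, 4.69 and 5.15 in SCI-Sham_ES. It measured 7.22, 6.26 and 7.80 in GA-3Days, against 4.74, 6.84 and 5.27 in Sham-GA-3Days. The mitotic motor Kif11 differed by −1.19, topoisomerase Top2a by −1.17 and the checkpoint ATPase Trip13 by −1.15. Mybl1, a MYB family transcription factor, differed by −1.53 (limma adjusted p = 0.48), with levels of 7.01, 6.57 and 7.57 in GA-3Days against 5.17, 6.78 and 5.29 in Sham-GA-3Days. In each of these genes the Sham-GA-3Days replicate 2 array lay among the GA-3Days arrays. DNA replication followed with 29 of 30 negative (median −0.53), led by the ribonucleotide reductase subunit Rrm2 at −1.26 and thymidylate synthase Tyms at −1.0. Pola2, a subunit of DNA polymerase alpha, went the other way at 1.25.

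Promoters of 2 cell division genes are shown because they hold both the CCAAT box and the cell cycle element TTTGAA, which are known in genes of the G2 and M phases. The format is that of the sequences above, with both motifs on either strand in capitals (ATTGG and TTCAAA on the reverse). Top2a lies on chr10:84473044-84473343 (minus strand), and Cdk1, the mitotic kinase, on chr20:19265043-19265342 (plus strand), with a difference of −1.10.
Top2a: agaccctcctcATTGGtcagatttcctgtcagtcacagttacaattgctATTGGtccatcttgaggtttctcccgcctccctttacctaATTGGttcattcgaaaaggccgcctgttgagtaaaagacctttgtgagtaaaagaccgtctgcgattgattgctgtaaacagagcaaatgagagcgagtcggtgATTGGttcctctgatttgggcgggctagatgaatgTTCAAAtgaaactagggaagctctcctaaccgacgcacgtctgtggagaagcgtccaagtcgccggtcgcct
Cdk1: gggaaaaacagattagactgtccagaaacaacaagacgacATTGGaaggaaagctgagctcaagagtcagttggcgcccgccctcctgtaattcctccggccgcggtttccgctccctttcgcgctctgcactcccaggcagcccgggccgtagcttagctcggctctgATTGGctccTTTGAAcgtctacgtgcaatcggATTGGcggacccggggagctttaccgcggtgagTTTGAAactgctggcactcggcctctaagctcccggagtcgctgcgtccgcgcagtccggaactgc
CCAAT was found in 33 of 45 matched cell division promoters (73.3%) and in 37.7% of all 27457 promoters. TTTGAA was found in 32 of 45 (71.1%) and in 18.1% of all, and both together in 26 of 45 (57.8%) and in 7.25% of all. The remaining 7 of the 52 genes had no entry matched. The motifs were not used to choose the genes, and the other matched promoters of the list lack one or both.

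Extracellular matrix genes were negative in 29 of 32, with a median of −0.82, and 4 reached an unadjusted p under 0.05. The median ES effect was 0.10 and the median GA effect 0.95. Without Sham-GA-3Days replicate 2 the median was −1.17 and 22 of 32 rose in GA by the test, beside 6.64% of all rows. Lox, which crosslinks collagen and elastin, differed by −1.96, and Plod2, which hydroxylates collagen lysines (row 10912255), by −1.66 (SE 0.587, limma adjusted p = 0.48). Plod2 measured 8.33, 8.20 and 8.55 in SCI-ES-3Days, against 7.87, 9.09 and 8.81 in SCI-Sham_ES. It measured 10.60, 9.83 and 11.06 in GA-3Days, against 8.27, 10.37 and 8.58 in Sham-GA-3Days. The ES groups overlapped, and 2 of the Sham-GA-3Days arrays lay below all GA-3Days arrays. Col12a1 differed by −1.70, the proteoglycan Vcan by −1.65, Postn by −1.39, and the main fibrillar collagens Col1a1 and Col3a1 by −1.14 and −1.10.

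Medians of macrophage and fibroblast markers had the same sign as these lists, and few members reached an unadjusted p under 0.05. In whole muscle fewer cells of a type and less RNA per cell cannot be told apart. All 22 macrophage markers had a negative difference (median −0.87), with a median ES effect of 0.01 and GA effect of 0.85. Of these, 2 (9.09%, beside 4.29% of all rows) reached an unadjusted p under 0.05. Their mean level was 7.58 to 9.40 in SCI-ES-3Days, against 8.18 to 8.85 in SCI-Sham_ES, and 9.65 to 10.25 in GA-3Days, against 8.41 to 10.00 in Sham-GA-3Days. Fibroblast markers were negative in 12 of 14 (median −0.66), with 1 (7.14%) at that level. Spp1, made by macrophages in injured muscle, differed by −1.52, the macrophage receptors Mrc1 and Cx3cr1 by −1.16 and −1.19, and the fibroblast protease Fap by −1.13. Neutrophil (0.19) and T and B cell (0.01) medians were near that of all rows. Endothelial markers had a positive ES effect in 15 of 15 (median 0.47) and a positive GA effect in 13 of 15 (median 0.16). In each effect 2 of 15 rose at an unadjusted p under 0.05. Without SCI-Sham_ES replicate 2 their median ES effect was 0.35. Their median difference was 0.26 with all arrays and 0.03 without Sham-GA-3Days replicate 2. The muscle fiber list had a median of 0.43 over its 12 genes, with Ckm, the muscle creatine kinase, at 0.42, and its median was 0.21 without SCI-ES-3Days replicate 3. The part of cell composition in the differences of matrix, cell division and mitochondrial genes was not tested.

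Protein folding in the endoplasmic reticulum was negative in 20 of 25 genes, with a median of −0.69, and 12 (48%) reached an unadjusted p under 0.05. List levels were 8.97, 9.09 and 8.93 in SCI-ES-3Days, against 8.97, 9.18 and 9.17 in SCI-Sham_ES. They were 9.94, 9.65 and 9.92 in GA-3Days, against 9.21, 9.68 and 9.25 in Sham-GA-3Days. Creld2, a secreted folding factor, differed by −1.28, the translocon subunit Sec61b by −1.16 and the disulfide isomerase Pdia4 by −1.12. Ostc, a subunit of the oligosaccharyltransferase, differed by −1.03 (limma adjusted p = 0.48). The stress transcription factor Atf3 differed by −1.08, whereas Ddit3, another one, stood at the other end with 0.53.

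Genes of translation had small differences, mostly below 0. Of 33 translation factors and tRNA synthetases, 30 were negative (median −0.26, 7 at an unadjusted p under 0.05, or 21.2%), as were 32 of 35 ribosome biogenesis genes (median −0.31, 4 at that level, or 11.4%). Of 43 ribosomal proteins 39 were negative (median −0.11), but the 2 at that level (4.65%) were close to the 4.29% of all rows, and the median was −0.03 without GA-3Days replicate 3. The median of the translation factors was −0.17 without that array. Tars1, the threonyl-tRNA synthetase (row 10821959), had a difference of −0.63 (SE 0.167, limma adjusted p = 0.48). It measured 7.56, 7.42 and 7.51 in SCI-ES-3Days, against 7.56, 7.76 and 7.62 in SCI-Sham_ES. It measured 8.41, 8.17 and 8.43 in GA-3Days, against 7.68, 8.06 and 7.84 in Sham-GA-3Days. Both pairs of groups were separated, the ES groups by less than the rounding of the values shown at 7.56. The initiation factor Eif1a differed by −0.66, and the ribosome assembly factors Tsr1 and Heatr1 by −0.65 and −0.59.

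Cholesterol synthesis was negative in 15 of 18 genes (median −0.45, 6 at an unadjusted p under 0.05). Idi1, which makes dimethylallyl diphosphate, differed by −1.41, Cyp51 by −1.0, Msmo1 by −0.93 and Hsd17b7 by −0.86, and Fdft1, which makes squalene, was the highest at 0.36. In the synthesis of fatty acids and triglycerides the members divided, with 3 positive and 3 negative of 17 at an unadjusted p under 0.05. Fads1, the delta-5 desaturase, differed by −1.32, and the glucose-sensing factor Mlxipl and the lipase inhibitor G0s2 by 1.46 and 1.2. Other rows with a negative difference and a small unadjusted p were the engulfment adaptor Gulp1 (−1.15), the spliceosome protein Snrpd1 (−1.12), the molybdenum cofactor enzyme Mocos (−1.11) and Mageh1 (−1.02), with ES effects between −0.23 and −0.11 and GA effects between 0.89 and 0.97, none of which passed the test (limma adjusted p = 0.21 for each GA effect).

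Among genes of signaling and growth no difference passed the test. Jak2, the kinase of many cytokine receptors (row 10714667), differed by −1.45 (SE 0.448, limma adjusted p = 0.48) and kept a value between −1.66 and −1.30 with each array left out. It measured 8.58, 9.31 and 8.74 in SCI-ES-3Days, against 9.30, 9.68 and 9.37 in SCI-Sham_ES. It measured 10.43, 10.05 and 10.18 in GA-3Days, against 9.16, 9.68 and 9.18 in Sham-GA-3Days. All GA-3Days arrays lay above the Sham-GA-3Days arrays, and the ES groups overlapped at one pair of values. In the TGF-beta list 15 of 20 were negative (median −0.52, but −0.26 without GA-3Days replicate 1 and −0.72 without Sham-GA-3Days replicate 2), led by Ltbp1, which holds latent TGF-beta in the matrix, at −1.29. The type 1 receptor Igf1r differed by −0.56 and its ligand Igf2 by −1.15. The Wnt list had a median of 0.00 over 28 genes, from the secreted inhibitor Sfrp2 at −1.06 to Dkk2 at 1.71, with Wnt16 at 0.65 and Lrp5 at 0.83. In the calcineurin list the regulator Rcan2 differed by 1.07 and the calsarcin Myoz2 by 0.97.

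In several genes of fiber stress SCI-Sham_ES replicate 2 held the highest value of the ES experiment. Ankrd1, a stress-responsive muscle protein, differed by −2.62 (SE 1.27, limma adjusted p = 0.52) with levels of 7.75, 7.36 and 10.11 in SCI-ES-3Days, against 7.84, 10.93 and 9.08 in SCI-Sham_ES. In GA-3Days it was 12.13, 10.10 and 12.58, against 9.40, 11.28 and 8.89 in Sham-GA-3Days. Cdkn1a, a cell cycle inhibitor raised after denervation, measured 8.21, 8.35 and 10.10 in SCI-ES-3Days, against 9.28, 12.56 and 9.62 in SCI-Sham_ES, and its difference was −2.19 with all arrays. Across leave-one-out fits it ran between −2.80 and −1.15. The median of the endplate list was −0.46 with all arrays and −0.13 without SCI-Sham_ES replicate 2, and that of the atrophy list was −0.24 with all arrays and 0.03 without it. Ncam1, which reappears on fibers that lose their nerve, differed by −1.74, Musk by −1.43 and Runx1 by −1.46. Among embryonic muscle genes 7 of 8 were negative (median −1.02), with cardiac actin Actc1 at −1.67 and cardiac troponin Tnnt2 at −1.48. Without SCI-Sham_ES replicate 2 that median was −0.76, and the median ES effect was −0.17 in place of −0.46. Negative members at an unadjusted p under 0.05 were 2 with all arrays and 0 without it. Dlk1 was the exception at 1.23, with 7.80, 9.5 and 8.56 in SCI-ES-3Days, above the 7.70, 7.4 and 7.70 of SCI-Sham_ES, and 6.95, 7.08 and 6.91 in GA-3Days, against 7.36, 6.98 and 7.22 in Sham-GA-3Days.

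**Figure D4:**
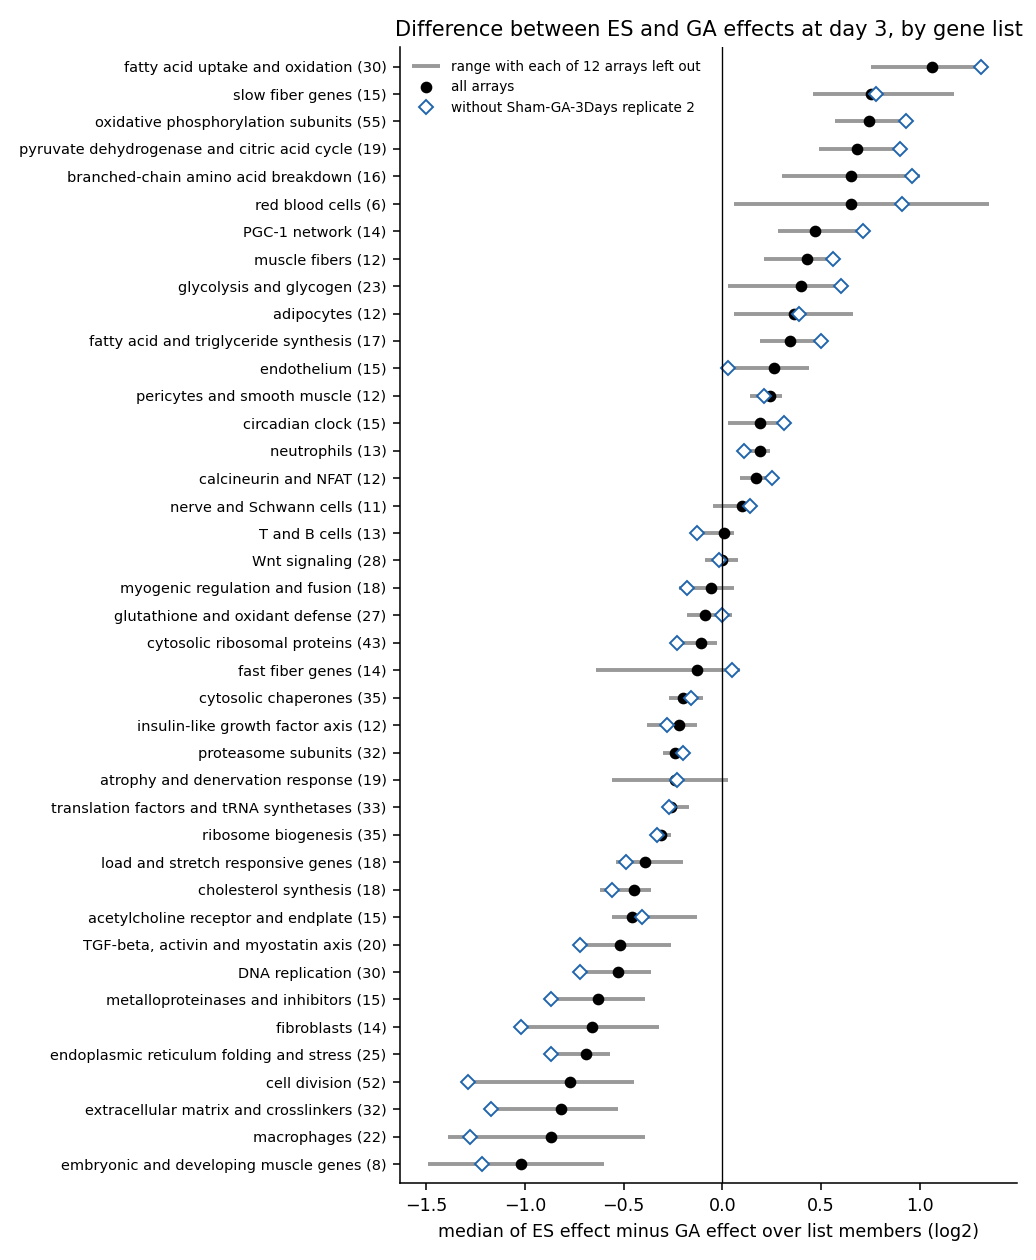
Median difference (ES effect minus GA effect, log2) of the gene lists at day 3, with the number of genes in brackets, a gray line over the fits that leave out each of the 12 arrays, and a blue diamond for the fit without Sham-GA-3Days replicate 2. Fatty acid oxidation stands highest at 1.06 and embryonic muscle genes lowest at −1.02, while Wnt signaling lies at 0.00.

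Single arrays moved the list values. With each of the 12 arrays left out, the count of positive oxidative phosphorylation genes at an unadjusted p under 0.05 ran between 26 and 54 and that of fatty acid genes between 7 and 26, while the count of negative genes ran between 1 and 48 in cell division and between 6 and 18 in endoplasmic reticulum folding. The count of positive citric acid cycle genes was 5 without SCI-Sham_ES replicate 2. Without GA-3Days replicate 3 the median was −0.45 in cell division, 0.30 in branched-chain breakdown and −0.60 in embryonic muscle genes, and the fast fiber median was 0.09. The macrophage median was −1.39 without SCI-ES-3Days replicate 2 and −0.39 without SCI-ES-3Days replicate 3, and the slow fiber median was 1.17 and 0.46 without these arrays. Without Sham-GA-3Days replicate 1 the matrix median was −0.53, the fibroblast median −0.32 and the PGC-1 median 0.28. The atrophy median was −0.56 without SCI-Sham_ES replicate 1, and the fast fiber median −0.64 without GA-3Days replicate 1. Without GA-3Days replicate 2 the branched-chain median was 1.00, the cell division median −1.20 and the endothelial median 0.05. The medians of the oxidative lists, cell division, matrix, macrophages and endoplasmic reticulum folding kept their sign in all of these fits.

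Rows whose groups were fully separated in opposite directions were few. In 148 rows (0.97%) all SCI-ES-3Days arrays lay on one side of the SCI-Sham_ES arrays and all GA-3Days arrays on the other side of the Sham-GA-3Days arrays, 70 of them with ES upward. In 53 rows (0.347%) the separation ran in the same direction. Without Sham-GA-3Days replicate 2 the counts were 316 (2.07%) and 279 (1.83%). Tmem100, a membrane protein of endothelium, had the largest difference among the 148 at −2.12 (ES effect −1.34, GA effect 0.79, limma adjusted p = 0.48), and it was chosen after its values were seen. Mmp13, a collagenase also chosen that way, had the lowest difference of all rows at −3.12, with an SE of 1.33.

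The difference was also followed over time. The ES effects of the different days share the SCI-Sham_ES arrays, and each GA day has its own sham group. No row passed for the day 3 difference minus the day 1 difference (limma, lowest adjusted p 0.12), with 2116 rows (13.9%) at an unadjusted p under 0.05, 784 higher (5.14%) and 1332 lower (8.73%) at day 3. The cell division median was 0.12 at day 1, −0.77 at day 3 and −0.57 at day 7. At an unadjusted p under 0.05, 6 of its 52 genes were lower at day 3 than at day 1, and 0 than at day 7. Fatty acid oxidation had medians of 0.50, 1.06 and 0.48 on these days. Of its 30 genes, 1 was higher at day 3 than at day 1 at that level, and 1 than at day 7. Oxidative phosphorylation had medians of 0.30, 0.74 and 0.37, and slow fiber genes of −0.01, 0.75 and 0.01. Higher at day 3 at that level were 5 of 55 respiratory genes against day 1 and 3 against day 7. Among 15 slow fiber genes these counts were 2 and 0. The higher medians of these lists at day 3 thus rest on few members at that level. Proteasome subunits measured 0.39, −0.24 and −0.21, and 22 of the 32 were lower at day 3 than at day 1 at an unadjusted p under 0.05. The endplate list measured 0.52, −0.46 and −0.19, with 7 of 15 lower at that level. Macrophage markers had medians of −0.63, −0.87 and 0.00, with 2 of 22 lower at day 3 than at day 1 at that level. For day 3 minus day 7, 0 rows passed (limma, lowest adjusted p 1) and 410 (2.69%) had an unadjusted p under 0.05.

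**Figure D5:**
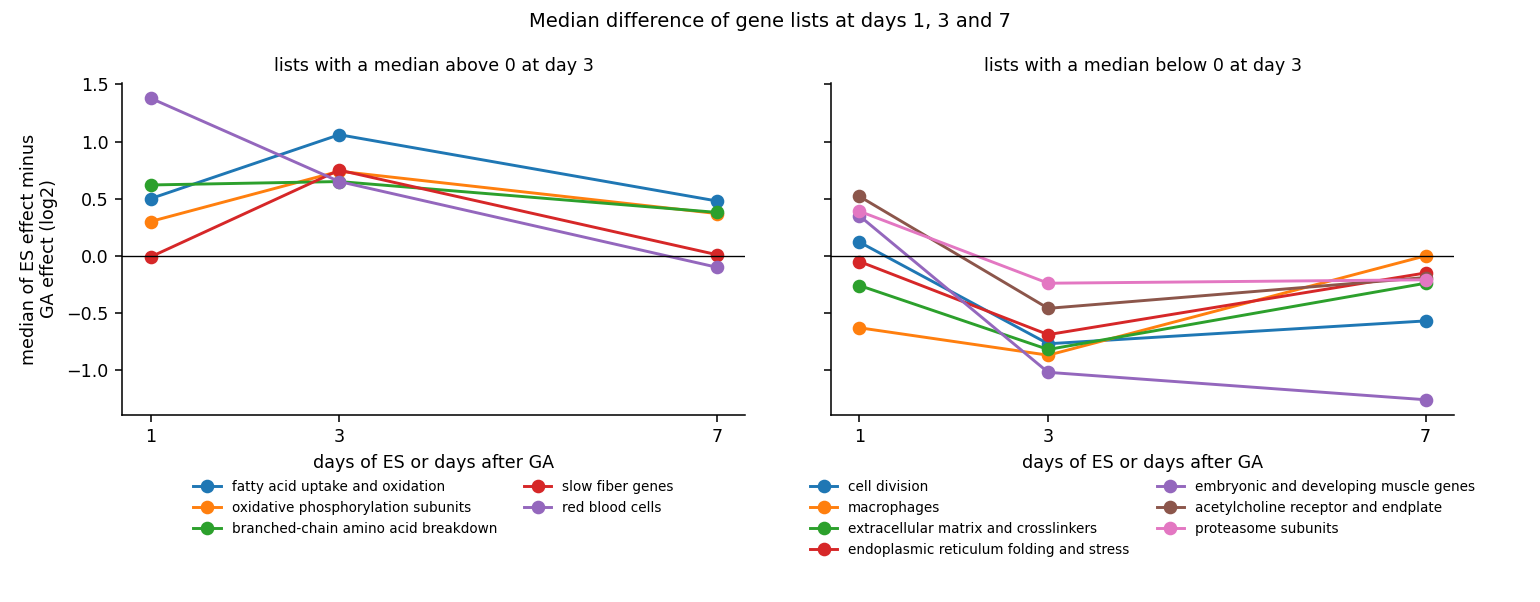
Median difference (ES effect minus GA effect, log2) of gene lists at 1, 3 and 7 days, with lists above 0 at day 3 on the left and lists below 0 at day 3 on the right. Medians of the oxidative lists are highest at day 3 (fatty acid oxidation 0.50, 1.06 and 0.48), though few of their members differed between days at an unadjusted p under 0.05 (limma). Cell division is below 0 at days 3 and 7 (0.12, −0.77 and −0.57), and embryonic muscle genes are lowest at day 7 (−1.26).

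The circadian list had a median of 0.19 over 15 genes, which was 0.03 without GA-3Days replicate 3 and 0.34 without GA-3Days replicate 2. Per1 and Cry2, repressors of the clock, differed by 0.84 (limma adjusted p = 0.48) and 0.70 (limma adjusted p = 0.48), and Bmal1, their activator, by −0.77. Bmal1 measured 7.86, 7.87 and 7.69 in SCI-ES-3Days, against 8.27, 8.76 and 8.69 in SCI-Sham_ES, with no overlap. It measured 8.93, 9.37 and 8.65 in GA-3Days, against 9.03, 8.85 and 9.07 in Sham-GA-3Days, with the groups intermixed. The ES effect of Per1 was 0.19 and its GA effect −0.65. The hour at which tissue was taken is not given in the sources used here, and its part was not tested.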

How the data were processed

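Soleus RNA was measured on Affymetrix rat ST arrays, 1 animal each. The deposited log2 values had been background-subtracted, quantile normalized and summarized by median polish by the authors (RMA, oligo package). Of 29214 rows, 15310 carry 1 gene symbol in the platform annotation, 323 several and 13581 none. Single-symbol rows averaging 3 or more were fitted with limma 3.58.1 (R 4.3.3) on all 33 arrays as 11 group means, with Benjamini-Hochberg adjustment over 15252 rows. A call needed an adjusted p under 0.05 and a 1.5-fold change. Python 3.11.15 made the tables (numpy 2.4.6, pandas 2.3.3) and the figures (matplotlib 3.10.9). The code was tested on simulated data. The 42 gene lists hold genes with a row, and a gene with several rows stands by its brightest. Members and lists were chosen with earlier results of these data known. Named genes were the 8 rows per direction with the smallest unadjusted p among differences of at least 2 fold, up to 4 genes per list by size and both ends of each list, and genes the study names. Alternatives covered filters, normalization, weights, the replicate block and each array left out. Arrays carry no read depth, so precision is limited by their number.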

Additional observations from a re-analysis of the deposited data

How the results depend on the processing

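The difference kept 0 calls (limma) under no filter, a mean of at least 6, the rows of higher variance, repeated quantile normalization, median centring, the 12 arrays alone, a trended robust prior, either rule for genes with several rows, other fold minimums, the replicate block (lowest adjusted p 0.54) and each array left out. Calls for the difference came with array weights, which belong to the alternatives listed above, and with settings added after seeing the data. With both day 3 replicate 2 arrays of the GA experiment left out, 1095 rows were called for the difference (574 up, 521 down), 2718 for the GA effect and 131 for day 3 minus day 1. These arrays were picked by their values. With array weights there were 3159 calls for the difference, 13 for the ES effect, 2774 for the GA effect, 2117 for day 3 minus day 1 and 2402 for day 3 minus day 7, and the weights, fitted on the same values, had not converged. Weights by the gene-by-gene method, added after seeing the data, gave 2419, 0, 2521, 788 and 604 calls for the same comparisons. With 1 array left out, calls for the GA effect ran from 0 to 1647 (374 without GA-3Days replicate 2, 1 without GA-3Days replicate 3) and those for day 3 minus day 1 from 0 to 1. The cause was not tested. Rows at an unadjusted p under 0.05 for the difference ran from 705 without Sham-GA-3Days replicate 1 to 3161 without Sham-GA-3Days replicate 2.

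Signs of small differences turned: Sfrp4 ran from −0.85 to 0.38, Hey1 from −0.00 to 0.23, Lef1 from −0.07 to 0.10, Chrna1 from −1.15 to 0.32, Chrnd from −0.54 to 0.90 and Suclg2 from −0.02 to 0.36 with each array left out. Without both replicate 2 arrays of the GA experiment Sfrp4 was 0.22, Hey1 −0.01 and Lef1 −0.02, and with repeated quantile normalization Lef1 was −0.03. Whether equal replicate numbers mark paired samples could not be told from groups of 3 arrays. Deviations of same-numbered arrays correlated at 0.19, −0.06 and −0.36 between the ES groups and at −0.21, −0.72 and −0.56 between the GA groups. With 3 arrays per group the SE of a difference averaged 0.263 over rows.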

Other observations

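Rows that carry no single gene symbol gave a like picture. Of 13468 such rows, 0 were called for the difference by limma, 1038 (7.71%) had an unadjusted p under 0.05, and 1881 (14%) did without Sham-GA-3Days replicate 2.

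Red blood cell genes had a median difference of 0.65 over 6 genes, and 0 of them reached an unadjusted p under 0.05. That median ran from 0.06 without GA-3Days replicate 3 to 1.35 without GA-3Days replicate 1. Alas2, the first enzyme of heme synthesis in red cells, measured 10.59, 11.15 and 10.37 in SCI-ES-3Days, against 11.18, 7.61 and 8.66 in SCI-Sham_ES, and 11.85, 10.24 and 9.07 in GA-3Days, against 10.29, 9.80 and 11.02 in Sham-GA-3Days. The groups overlapped in both experiments. The list median was 1.38, 0.65 and −0.10 at days 1, 3 and 7. Olfactory receptors, the odorant receptors of the nasal epithelium, had a median of 0.05 over 1059 genes, with 27 positive (2.55%) and 6 negative (0.567%) at an unadjusted p under 0.05, and list levels of 4.16 to 4.33 on the 12 arrays.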
